A study of Mus musculus with 3 samples.

Results

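The wells compared here come from a single-well RNA sequencing library of mouse heart cells taken 2 days after tamoxifen, and they were split by the mitochondrial share, which is the percentage of a well's reads that came from genes of the mitochondrial genome. Of the 1063 wells in the day 2 table, 1059 had at least 1000 counts and 300 detected genes. Wells were dropped when Lyz2, C1qa, C1qb and C1qc, genes of macrophages, summed to 1000 CPM (counts per 1000000 nuclear-encoded counts) or more, or when Dcn, Col1a1, Col3a1 and Lum, genes of fibroblasts, did so. This removed 217 wells and left 842. Of these, 292 had a mitochondrial share below 32% and are called low-share wells, 489 had a share of 40% or above and are called high-share wells, and 61 lay between. The comparison therefore covered 781 of the 3394 wells in the 3 tables of the series.

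Both groups of wells belong to 1 library, so they share the label INO80_OE, the treatment (spelled tarmoxifen in the labels) and the day, and no control wells were compared here. Per the title of the series the mice carried Myh6-MCM, in which a cardiomyocyte myosin promoter drives a Cre recombinase that tamoxifen switches on, and Ino80fl/fl, while the design text speaks of Ino80 being induced. The number of mice behind the library, and whether mice were pooled, is not given in the sources used here. Libraries of days 1 and 3 served for side-by-side values, and the day 3 library carries the labels D3_INO80_OE and D3_Ctrl with no map of its wells to either. Because wells of 1 library are not replicates of a condition, values are described without tests, and every interval covers counting error of reads without molecular identifiers.

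Mitochondria supply most of the ATP of the adult cardiomyocyte, and their own small genome encodes the ribosomal RNAs and the core subunits of the respiratory chain, while all other subunits are encoded in the nucleus. The share of mitochondrial reads in a single cell is widely used as a measure of cell state and of library quality. Ino80 is the ATPase of the INO80 chromatin remodelling complex, which moves and exchanges nucleosomes at promoters and at sites of DNA repair.

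The shares formed a lower and an upper group with few wells between them. The low-share wells had a median share of 25.4% (quartiles 23.3 to 27.6%) and the high-share wells 48.2% (44.8 to 51.2%), values that the choice of wells fixed. There were 16 wells between 30 and 32%, 15 between 32 and 34%, 21 between 38 and 40% and 42 between 40 and 42%, so 31 wells lay within 2 points of the lower boundary and 63 within 2 points of the upper one. Reads of spike-ins, synthetic RNAs added as controls, came to 247 (ERCC) and 220 (SIRV) over all day 2 wells. Adding them to the total moved 0 wells between groups, but they are too few to test the grouping. On day 1 the same filters gave 55 wells below 32%, 410 between and 499 at 40% or above, and on day 3 they gave 795, 80 and 67, with 1 broad group on each of those days. Reads of mt-Co2, mt-Atp8, mt-Atp6 and mt-Co3, neighbouring genes at chrM:7013-9390 in mm10, came to 72 of 177616257 mitochondrial reads in the day 2 wells, so the share counts the other mitochondrial genes.

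**Figure D1:**
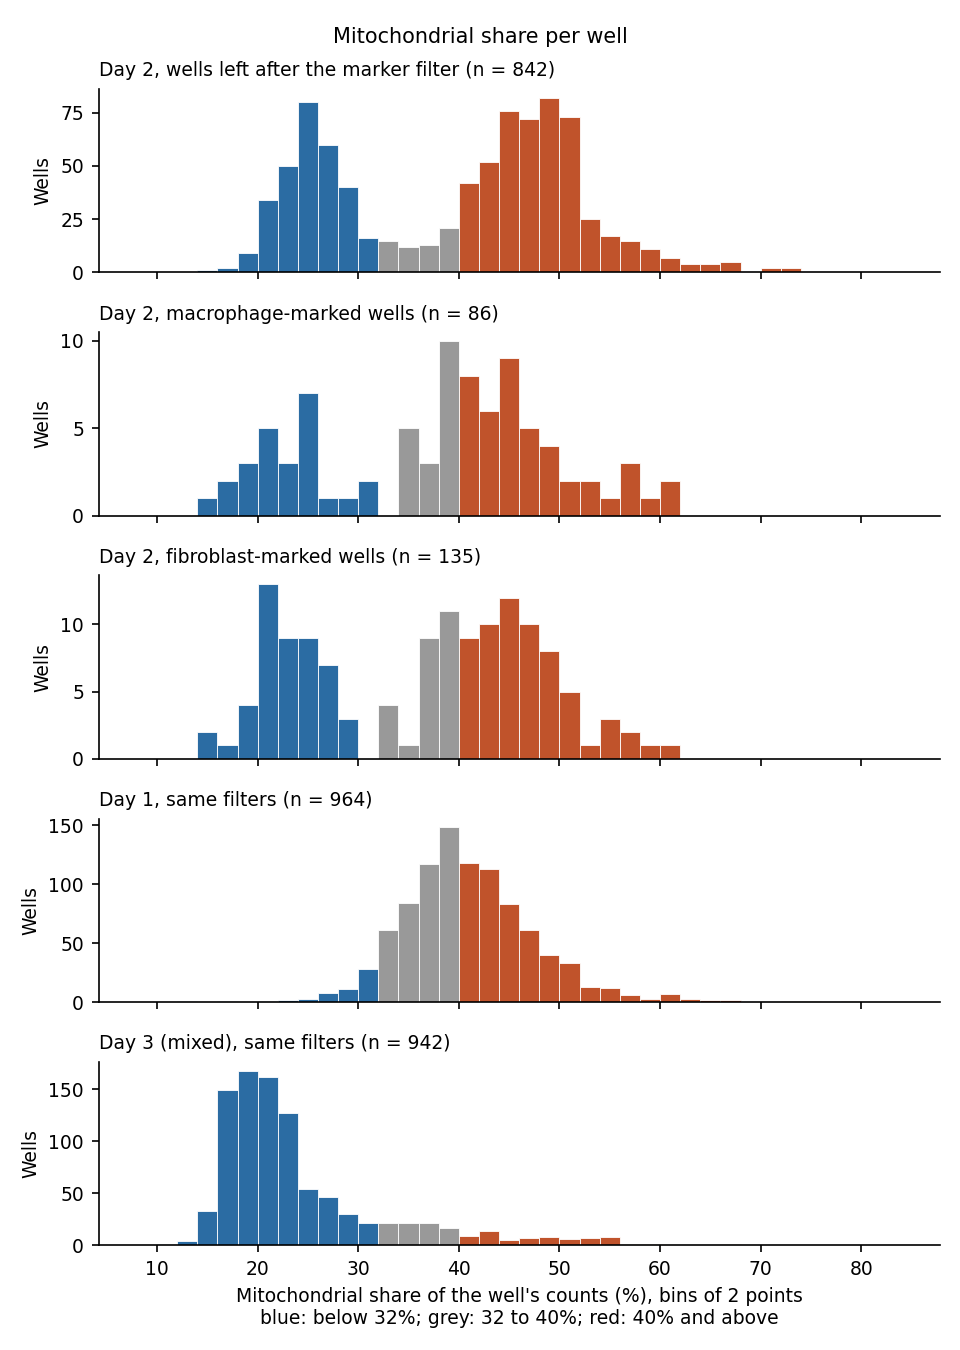
Number of wells (y axis) by mitochondrial share in percent (x axis, bins of 2 points) in the day 2 wells left after the marker filter, the day 2 wells that carried macrophage or fibroblast genes, and the day 1 and day 3 wells under the same filters. Between 32 and 40% lie 61 of the 842 filtered day 2 wells, 18 of the 86 macrophage-marked and 25 of the 135 fibroblast-marked ones, and 410 of 964 day 1 wells, so the gap is plainest in the filtered wells of day 2.

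A difference in mitochondrial relative to nuclear-encoded reads was fixed by the choice of wells, and the counts behind it are given here as description. The median low-share well had 302554 counts in total, of which 77773 were mitochondrial and 220544 nuclear-encoded. The median high-share well had 369379, 181478 and 186208. Low-share wells had a median of 3033 detected genes and high-share wells 3750. Each well was then thinned to 30000 counts, which left out 2 low-share wells. The medians became 1854 (quartiles 1724 to 2029) and 1912 (1708 to 2198) detected genes, with overlapping quartiles. The thinning drew from all reads, mitochondrial ones included. High-share wells therefore kept fewer nuclear-encoded reads than low-share wells, and the thinned medians do not compare equal nuclear-encoded depth. Doublets were not called, since the labels state that wells with single live cells were chosen by imaging. Well barcodes recur between libraries: 212 of the 781 wells have a barcode that also occurs on day 1, and 178 one that occurs on day 3.

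Genes of the contractile apparatus that define the ventricular cardiomyocyte were among the most abundant in both groups, as the label adult cardiomyocyte says. The summed level of the 18 ventricular markers had a median of 114274 CPM in low-share wells (quartiles 107792 to 120892) and 134861 CPM in high-share wells (126304 to 144474), where CPM is taken over nuclear-encoded genes. Myh6, the main myosin heavy chain of the adult mouse heart, had a median of 9641 CPM (lowest 3910, highest 16742) in low-share and 13653 CPM (3651 to 26146) in high-share wells. The summed Myh6 levels were 10032 and 13992 CPM, a log2 ratio of low-share to high-share of -0.48. The order of Myh6 and of the marker sums turns if mitochondrial reads are put into the total, because that moves the ratio of the median gene from -0.27 to 0.26. T cell and NK cell markers reached a mean of 5 CPM for 0 of 8 genes.

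The wells that the marker filter had removed also lay on both sides of the boundaries, with a larger part of them in between. Of the 86 wells with macrophage genes, 25 had a share below 32%, 18 (20.9%) one between and 43 one of 40% or above. Of the 135 wells with fibroblast genes these were 48, 25 (18.5%) and 62, against 61 of 842 (7.24%) between the boundaries in the filtered wells. These classes made up similar parts of both groups before filtering: macrophage-marked wells were 6.85% of low-share wells (exact 95% interval 4.48 to 9.95%) and 7.26% of high-share wells (5.31 to 9.66%), and fibroblast-marked wells 13.2% (9.86 to 17.1%) and 10.5% (8.12 to 13.2%). Marked wells also held cardiomyocyte transcripts: median Myh6 was 7773 and 12314 CPM in the macrophage-marked low-share and high-share wells. It was 7844 and 13200 CPM in the fibroblast-marked ones.

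Ino80, at chr2:119373042-119477687 on the minus strand in mm10, was the label gene of the model and was higher in the high-share wells. Low-share wells had a median of 2246 CPM (lowest 559, quartiles 1626 and 2946, highest 7981), and high-share wells a median of 6799 CPM (lowest 962, quartiles 5432 and 8122, highest 17296). The ranges overlapped and the quartiles did not. In summed counts the level was 2299 CPM in low-share and 6829 CPM in high-share wells, 2.97-fold higher in the latter (log2 ratio -1.57, counting interval -1.58 to -1.56). Of the low-share wells 24 of 292 (8.22%) reached 4000 CPM, against 448 of 489 (91.6%) high-share wells. Ino80 was detected in every well of both groups, and reads of an endogenous and an introduced copy cannot be told apart in these tables.

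The Ino80 level followed the share through the wells in between. Summed levels were 1628, 2333, 4082, 6521 and 7289 CPM in wells below 20%, at 20 to 32%, at 32 to 40%, at 40 to 48% and at 48% or above. Just inside and outside the boundaries they were 3249 CPM at 30 to 32%, 3785 at 32 to 34%, 4730 at 38 to 40% and 5993 at 40 to 42%. Within the low-share wells Spearman's rho between share and Ino80 CPM was 0.27 (n = 292 wells), within the high-share wells 0.24 (n = 489) and over all 842 wells 0.75, a description of wells that share 1 library. Macrophage-marked wells had medians of 1747 CPM (low-share) and 4713 CPM (high-share), and fibroblast-marked wells 1982 and 5977 CPM. On day 1 the medians were 1648 and 2824 CPM, and on day 3 46.7% of low-share and 47.8% of high-share wells reached 1000 CPM.

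The other transcripts tied to the model did not all behave as Ino80 did. Esr1, the estrogen receptor from which the tamoxifen-binding part of MCM derives, had well medians of 369.6 CPM in low-share and 323 CPM in high-share wells (summed log2 ratio 0.05). Gt(ROSA)26Sor, the transcript of the locus into which transgenes are often placed, had medians of 4.14 and 50.8 CPM (summed 60.7 and 131 CPM, log2 ratio -1.11). EGFP had a read in 3.77% of low-share and 6.75% of high-share wells, and 3xFlag in 0.342% and 1.64%. Of the 15 subunits of the INO80 complex, 11 reached a mean of 5 CPM, 7 of them lay above and 4 below the median gene of the comparison, and Ino80 was the 1 subunit past 2-fold on the high-share side, where 17.3% of all genes with a mean of 5 CPM were. The partner ATPase Ruvbl1 had 18.2 against 14.0 CPM, and the actin-related subunit Actr8 36 against 18.1 CPM.

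**Figure D2:**
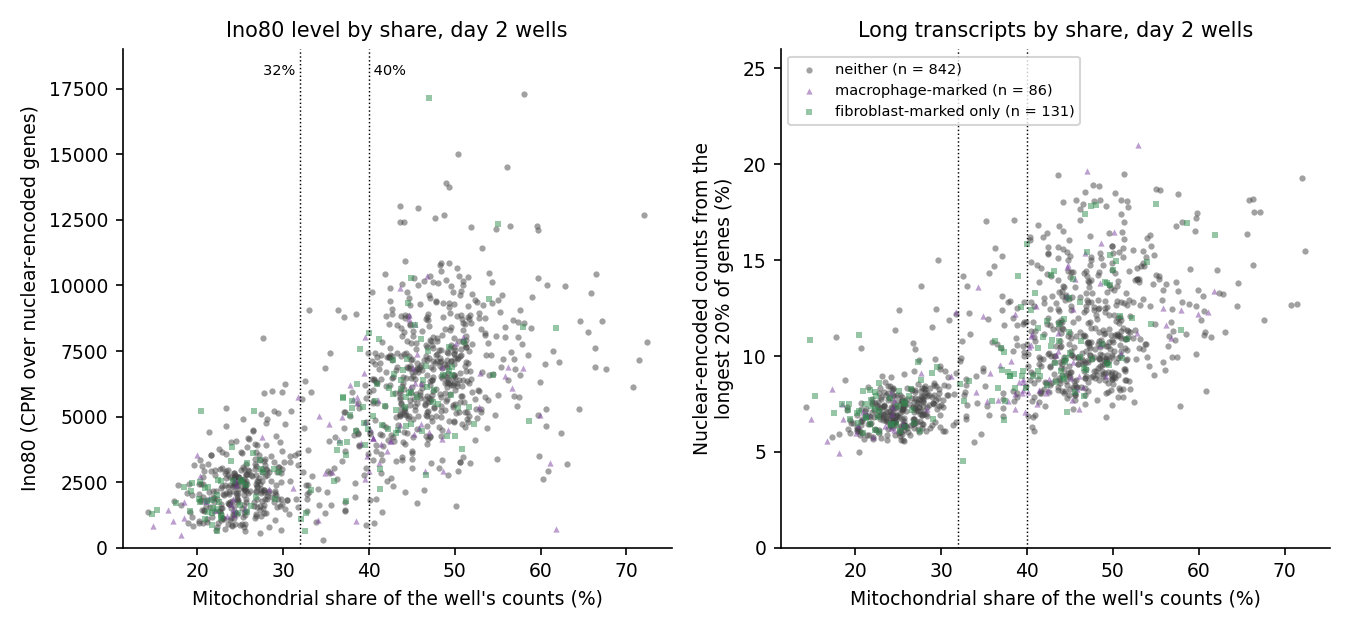
Each point is a day 2 well; the x axis is its mitochondrial share in percent, and the y axes are its Ino80 level in CPM over nuclear-encoded genes (left) and the percentage of its nuclear-encoded counts from the longest 20% of genes (right), with dotted lines at 32 and 40%. Low-share wells centre on 2246 CPM and 7.16%, high-share wells on 6799 CPM and 11.1%, and macrophage-marked and fibroblast-marked wells lie among the others.

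Across the 6494 genes with a mean of at least 10 CPM, 144 (2.22%) were at least 2-fold higher in low-share wells and 948 (14.6%) at least 2-fold higher in high-share wells. The median gene had a log2 ratio of -0.27, and 4266 genes were lower in low-share wells. This split depends on the scaling: low-share genes were 13.2% of those past 2-fold with the nuclear-encoded total, 40.6% (338 and 495 genes) with a median-of-ratios size factor, and 81.8% (610 and 136 genes) with mitochondrial reads in the total, where the median gene was at 0.26. The order of 2 levels with a log2 ratio between -0.54 and 0 turns with that last scaling. Gene lists are therefore given below relative to the median gene, which another scaling shifts together with the lists.

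The log2 ratio went with transcript length, taken as the summed exon length in GENCODE M21. Genes past 2-fold on the low-share side had a median exon length of 2598 bases (quartiles 1435 to 4656), those on the high-share side 6646 bases (4594 to 9660), and all tested genes 4552 bases. In 5 equal groups of genes from the shortest to the longest, the median log2 ratio was 0.23, -0.16, -0.37, -0.45 and -0.63. The longest group, 8146 bases or more, held 8 genes past 2-fold on the low-share side and 335 on the high-share side. Groups by GC content had medians between -0.31 and -0.22.

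Length moved with the share in single wells too, beside Ino80. The longest 20% of genes gave 7.16% of the nuclear-encoded counts of the median low-share well (quartiles 6.53 to 7.83%) and 11.1% of the median high-share well (9.50 to 13.6%), and the shortest 20% gave 48.4% and 40.5%. Medians by length fell in the same order in macrophage-marked wells (0.24 to -0.53), fibroblast-marked wells (0.23 to -0.55), day 1 (0.13 to -0.34) and day 3 (0.22 to -0.61). Ino80 has 6803 bases of exon, and relative to genes of like length its log2 ratio was -1.05. Set against genes of like length, 118 of the 144 low-share genes and 351 of the 948 high-share genes remained past 2-fold. This step also takes out the shift of the median gene (-0.27), so the fall from 948 does not measure length alone. A median-of-ratios size factor, which uses no length, gave 338 low-share and 495 high-share genes past 2-fold. The part of transcript length in the differences below was not tested, and the value relative to genes of like length is given beside them.

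**Figure D3:**
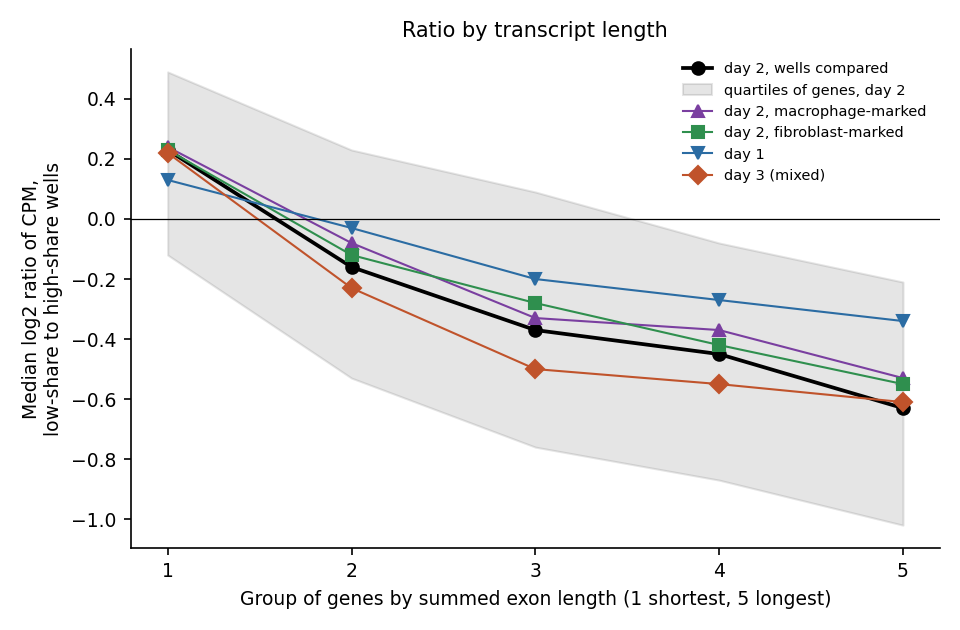
Median log2 ratio of CPM, low-share to high-share wells (y axis), in 5 groups of genes from the shortest to the longest summed exon length (x axis), for the day 2 wells compared, the day 2 marked wells and days 1 and 3; the grey band spans the quartiles of genes for the day 2 comparison. Every line falls, in the day 2 wells from 0.23 to -0.63.

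A fixed rule named 15 genes on the low-share side, from 1 run over all the wells compared and 1 without the wells richest in endothelial transcripts. Their largest counting interval was 0.13 on either side of the log2 ratio. Gadd45g is a stress-induced regulator of growth arrest. The median low-share well had 145 CPM (quartiles 36.5 to 281) and the median high-share well 9.88 CPM (0 to 58.5), with summed levels of 206 and 52.4 CPM (log2 ratio 1.97). Ftl1, the light chain of the iron store ferritin, had well medians of 273 CPM (171 to 415) and 95.5 CPM (29.1 to 192), and its log2 ratio of 1.29 was 1.08 relative to genes of like length. Rrad, a small GTPase that restrains the L-type calcium channel, had well medians of 55.8 and 3.56 CPM (summed 169 and 65.5 CPM). The quartiles of Gadd45g, Ftl1 and Rrad all overlapped between the groups.

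The remaining genes on that side were found in fewer wells. Timp1, an inhibitor of matrix metalloproteinases, had the highest named log2 ratio of 2.90 (41.2 against 5.54 CPM). It had a read in 23.3% of low-share and 20.4% of high-share wells. After thinning to 30000 counts, which left high-share wells fewer nuclear-encoded reads, these were 12.8 and 3.48%. Plin2, a coat protein of lipid droplets, had 185 and 72.6 CPM, and Nmrk2, a muscle kinase that makes NAD from nicotinamide riboside, 131 and 51.2 CPM. Lcn2, a secreted carrier of iron siderophores, had 80.9 and 29.5 CPM, and Fxyd5, a regulator of the sodium pump, 67.2 and 24.6 CPM. Wdfy1 (45.6 and 11.2 CPM), Spink4 (54.1 and 15.2), Cavin3 (42.6 and 15.0) and Pf4, a chemokine of platelets (35.6 and 11.7), completed the first run. Leaving out the wells in the highest 25% by endothelial markers, which kept 204 low-share and 381 high-share wells, added Cstad (33.4 and 5.03 CPM over all wells), the secreted glycoprotein gene Fstl1 (44.8 and 21.5) and the coatomer subunit gene Copz2 (112 and 56.0). The exons of 2 of the 15 genes overlap another gene on the same strand and those of 5 overlap one on the opposite strand, and the strand setting of the counting is not given in the sources used here.

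The rule named 14 genes on the high-share side, with a median exon length of 7197 bases against 1662 for the low-share genes. Nceh1, a hydrolase of cholesterol esters, had a well median of 263 CPM (quartiles 88.0 to 584) in high-share and 31.3 CPM (4.67 to 128) in low-share wells, with summed levels of 398 and 109 CPM. Slc8a1, the sodium-calcium exchanger, had 90.5 and 23.8 CPM, and Corin, the protease that activates natriuretic peptides, 55.3 and 9.70 CPM. Epha4 (43.7 and 6.98 CPM), a receptor for ephrins, Camk2a (48.6 and 9.59), a calcium-calmodulin kinase, Iqsec1 (78.8 and 18.5), an exchange factor for ARF GTPases, and Phtf2 (112 and 28.9) were also on this side. So were the transcriptional regulators Med1 of the Mediator complex (51.1 and 11.2 CPM), Sap30l of the Sin3 corepressor (55.3 and 12.4) and the zinc finger gene Zfp871 (32 and 7.15).

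A further 3 genes of the high-share side were globins, which are transcripts of red blood cells. Hba-a1 had 747 CPM in high-share and 111 CPM in low-share wells, Hba-a2 521 and 71.2 CPM, and Hbb-bs 415 and 59.9 CPM. Wells with 5000 CPM or more of haemoglobin were 2.87% of high-share and 0.822% of low-share wells before the marker filter. Without them the log2 ratios of Hba-a1, Hba-a2 and Hbb-bs shrank from -2.75, -2.87 and -2.79 to -1.38, -1.50 and -1.41. In macrophage-marked and fibroblast-marked wells and on days 1 and 3 these globins were higher in the low-share wells, Hba-a1 by log2 ratios of 2.37, 1.67, 3.05 and 1.60.

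Over 5 bins of the share, 20 of the 29 named genes had their level at 32 to 40% between those of the neighbouring bins, and 7 were in order over all 5. Gadd45g went from 439 CPM below 20% through 194, 118 and 67.6 to 29.6 CPM at 48% or above. Ftl1 went from 455 through 313, 195 and 149.7 to 104 CPM. Nceh1 ran the other way, from 59.3 through 112, 247 and 392 to 407 CPM.

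**Figure D4:**
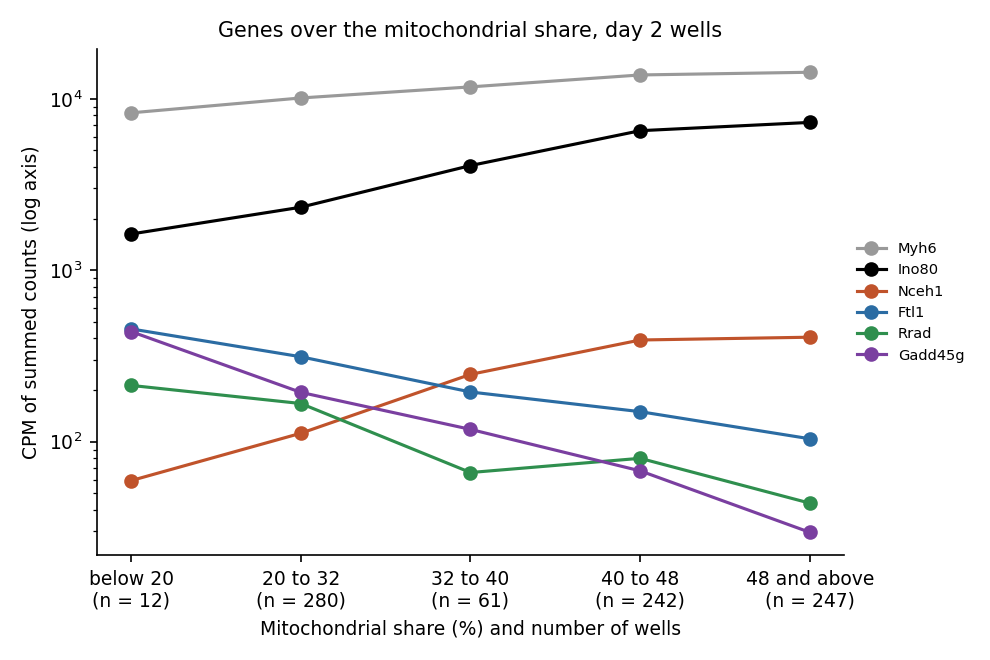
Summed CPM (y axis, log scale) of 6 genes in 5 bins of the mitochondrial share of day 2 wells (x axis, with the number of wells). Ino80 goes from 1628 to 7289 CPM and Nceh1 from 59.3 to 407 CPM with the share, Gadd45g from 439 to 29.6 CPM and Ftl1 from 455 to 104 CPM against it, and the lowest bin holds 12 wells.

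The nuclear-encoded part of the respiratory chain stood on the opposite side from the mitochondrial reads. Of the 37 nuclear subunits of complex I, 34 were higher in low-share wells and 36 lay above the median gene, with a median log2 ratio of 0.37, or 0.65 relative to the median gene. Their summed level had a well median of 84299 CPM (quartiles 78298 to 91049) in low-share and 65951 CPM (55396 to 75669) in high-share wells, so the quartiles did not overlap. Of the 41 subunits of complexes II to V, 36 were higher in low-share wells and 40 lay above the median gene (median 0.34, or 0.63 relative). No gene of either list passed 2-fold, against 3.49% (low-share side) and 17.3% (high-share side) of all genes with a mean of 5 CPM. Cox6a2, the muscle form of a cytochrome oxidase subunit, had well medians of 12320 and 8710 CPM in low-share and high-share wells, Atp5g1, the membrane ring subunit of ATP synthase, 12648 and 8364 CPM, and Atpif1, the inhibitor of that enzyme, 1153 and 639 CPM. Sdha of complex II (856 and 1038 CPM) and Atp5a1 of complex V (4990 and 6226 CPM) were lower in low-share wells with this total and higher with mitochondrial reads in the total. The subunits are mostly short transcripts, with median exon lengths of 1569 and 1831 bases, and relative to genes of like length the list medians were 0.17 and 0.16.

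Within the mitochondrial reads, which the rule used only as a sum, the makeup of the groups was close. Mt-Rnr2, the large ribosomal RNA at chrM:1094-2675, was 26% of mitochondrial reads in low-share and 25.4% in high-share wells, and mt-Rnr1, the small one at chrM:70-1024, 13.6 and 12.1%. Mt-Cytb of complex III was 16.1 and 14.4%, mt-Co1 of complex IV 6.20 and 5.97%, and mt-Nd1 of complex I 11.9 and 12.5%. The complex I genes mt-Nd4 (10.8 and 12.5%), mt-Nd2 (8.63 and 9.70%) and mt-Nd6 (1.79 and 2.13%), the last on the opposite strand at chrM:13552-14070, took somewhat more of the high-share reads. Log2 ratios of these percentages ran from -0.26 for mt-Nd6 to 0.17 for mt-Rnr1, and the quartiles over wells overlapped.

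Genes of excitation and calcium cycling were on the high-share side of the median gene. Of 15 ion channels and pumps measured, 11 lay below the median gene and 6 were past 2-fold on the high-share side (median log2 ratio -0.82, -0.53 relative to the median gene and -0.56 relative to like length). Among these were the potassium channel genes Kcnj3 (13.7 and 49.6 CPM in low-share and high-share wells) and Kcnd2 (3.99 and 11.5). Fxyd1, which encodes phospholemman, was on the other side, with 1138 and 718 CPM. At the 5 CPM minimum used for lists, 17.3% of all genes were past 2-fold on the high-share side, against 6 of 15 channels and 6 of 17 calcium genes, which are counts over a few genes. Of the 6 channels, 1 had under 5 CPM in low-share wells and so passed that minimum through its high-share level.

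Ryr2, the calcium release channel of the sarcoplasmic reticulum, had well medians of 281 CPM (quartiles 119 to 701) in low-share and 1037 CPM (594 to 1578) in high-share wells. Casq2, the calcium buffer of that store, had well medians of 531 and 1092 CPM, and Atp2a2, its calcium pump, 3039 and 5573 CPM. Cacna1c, the pore of the L-type channel, had 8.01 and 30.7 CPM summed. The calcium handling list had a median log2 ratio of -0.61 over 17 genes, -0.32 relative to the median gene and -0.30 relative to like length. The calcium-binding protein gene S100a1 (5030 and 3419 CPM) was higher in low-share wells.

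The sarcomere itself was split by gene. Of 26 genes, 13 lay above and 13 below the median gene, and the list median was 0.05 relative to it. Ttn, the giant elastic filament and among the longest transcripts measured, had well medians of 6355 CPM (5141 to 8038) and 14245 CPM (10563 to 20512). Relative to like length its log2 ratio was -0.45, but the bin of the longest genes runs up to 116825 bases. That value therefore does not set Ttn against genes of its own length. Mybpc3, myosin-binding protein C, had 2344 and 4030 CPM, whereas the thin-filament genes Tnni3 (16385 and 12685 CPM) and Tnnc1 (6549 and 5446 CPM) and the Z-disc genes Csrp3 (3152 and 1995) and Tcap (4582 and 2949) were higher in low-share wells. In the intercalated disc and cytoskeleton list, 16 of 24 genes lay below the median gene, among them the desmosomal cadherin Dsg2 (74.5 and 205 CPM) and N-cadherin, Cdh2 (18.0 and 37.5 CPM), and the list median was -0.27 relative to it and -0.09 relative to like length.

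Fuel metabolism showed no common side. Fatty acid uptake and oxidation had a median 0.01 from the median gene over 26 genes, the citric acid cycle 0.01 over 20 and glycolysis -0.04 over 19. Single genes stood out: Lpl, the lipase that frees fatty acids from lipoproteins, had well medians of 2330 and 4611 CPM in low-share and high-share wells, and Acsl1, which activates fatty acids, 85.6 and 279 CPM. Ppara, the nuclear receptor of fatty acid oxidation, had 7.01 and 21.8 CPM summed. Fabp3, the fatty acid carrier of heart muscle (3537 and 2413 CPM), and Pgam2, the muscle phosphoglycerate mutase (7171 and 4384 CPM), were on the low-share side. The hypoxia list had 12 of 16 genes below the median gene (median -0.40 relative to it), with well medians of 39.8 and 146 CPM for the angiogenic factor Vegfa.

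Transcripts linked to cardiomyocyte injury had the highest median of the gene lists on the low-share side. Of 17 genes measured, 16 lay above the median gene and 7 were past 2-fold there, where 3.49% of all genes with a mean of 5 CPM were. The background does not carry over directly, since 3 of the 7 had under 5 CPM in high-share wells and passed the minimum through the group in which they were high. The list median was 0.91, or 1.20 relative to the median gene and 1.04 relative to like length. Timp1 was among the 7, with Krt18, a keratin (34.5 and 4.30 CPM), Lgals3, galectin-3 (26 and 5.80), S100a6 (42.4 and 19.3) and Bglap3 (11.9 and 3.43). Sprr1a, also among them, had 29.7 and 0.319 CPM with 50.6% of the low-share reads in 1 well. The median well had no read of 14 of the 18 listed genes in either group, so these levels rest on a minority of wells. More widely detected members were Tnfrsf12a, the receptor for TWEAK, with well medians of 134 and 62.2 CPM, and Anxa2 with 22.1 and 5.53 CPM, while Clu was near even at 2368 and 2556 CPM summed.

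The heat shock and chaperone list lay above the median gene, with single genes on either side of even. Of the small heat shock proteins, Hspb1 had well medians of 1153 CPM (quartiles 789 to 1728) and 558 CPM (251 to 903), Cryab, the lens and muscle chaperone, 3376 CPM (2834 to 4089) and 1846 CPM (1276 to 2346), and Hspb6 1374 and 812 CPM. Hspa8, the constitutive HSP70 of the cytosol, had 1328 and 782 CPM, whereas Hsp90ab1 (log2 ratio -0.18), Bag3 (-0.37) and the small heat shock protein Hspb8 (-0.23) were near the median gene and Hspb7 (-0.52) was below it. Of the 19 chaperone genes, 16 lay above the median gene (median 0.38 relative to it, 0.61 relative to like length). In the fetal and stress list, Ankrd1, a titin-associated stress gene, had well medians of 1336 CPM (1074 to 1771) and 595 CPM (348 to 971), and Nppb, which encodes B-type natriuretic peptide, 679.6 CPM (474 to 913) and 352 CPM (207 to 549). The quartiles of Cryab and Ankrd1 did not overlap between the groups, and those of Hspb1 and Nppb did. The fetal and stress list had 10 genes higher in low-share and 8 higher in high-share wells. Of these 18 genes 1 passed 2-fold each way, against 3.49% (low-share side) and 17.3% (high-share side) of all genes with a mean of 5 CPM. The list median was 0.39 above the median gene and 0.06 relative to like length.

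Other stress lists were mixed. In the NRF2 antioxidant list, 13 of 21 genes lay above the median gene (median 0.50 relative to it, 0.27 relative to like length). Prdx1, a peroxiredoxin, had well medians of 837 and 436 CPM, and Me1, malic enzyme, was on the other side at 30.7 and 62.6 CPM summed. Immediate early genes had 16 of 19 above the median gene (median 0.66 relative to it, 0.31 relative to like length). Atf3 was among them, with well medians of 120.2 and 27.2 CPM. In summed counts, however, 0 of the 19 passed 2-fold on either side. Of all genes with a mean of 5 CPM, 3.49% (low-share side) and 17.3% (high-share side) did. The median log2 ratio of the list, 0.37, was 0.02 when wells were thinned to 30000 counts. The integrated stress and unfolded protein list was -0.05 from the median gene, with Atf6, a sensor of the endoplasmic reticulum, at 66.8 and 163 CPM. The p53 list was 0.05 from it although it holds Gadd45g. Of 10 apoptosis genes measured, 10 were higher in high-share wells and 7 lay below the median gene (median -0.21 relative to it). Of these genes 0 passed 2-fold, against 3.49% (low-share side) and 17.3% (high-share side) of all genes, a count over too few genes to set apart from those shares. Muscle atrophy genes had 7 of 10 below the median gene, with Fbxo32, the ubiquitin ligase atrogin-1, at well medians of 15.6 and 123 CPM.

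Short housekeeping transcripts were above the median gene. Of 80 ribosomal protein genes measured, 75 lay above it (median 0.59 relative, 0.15 relative to like length). Of 25 proteasome genes, 23 did (0.58 and 0.26), and Psmb3, a core subunit, had well medians of 297 and 126 CPM. In summed counts 0 genes of either list passed 2-fold on either side. Of all genes with a mean of 5 CPM, 3.49% (low-share side) and 17.3% (high-share side) did. The long nuclear RNA Malat1 was near even at 3264 and 3379 CPM.

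**Figure D5:**
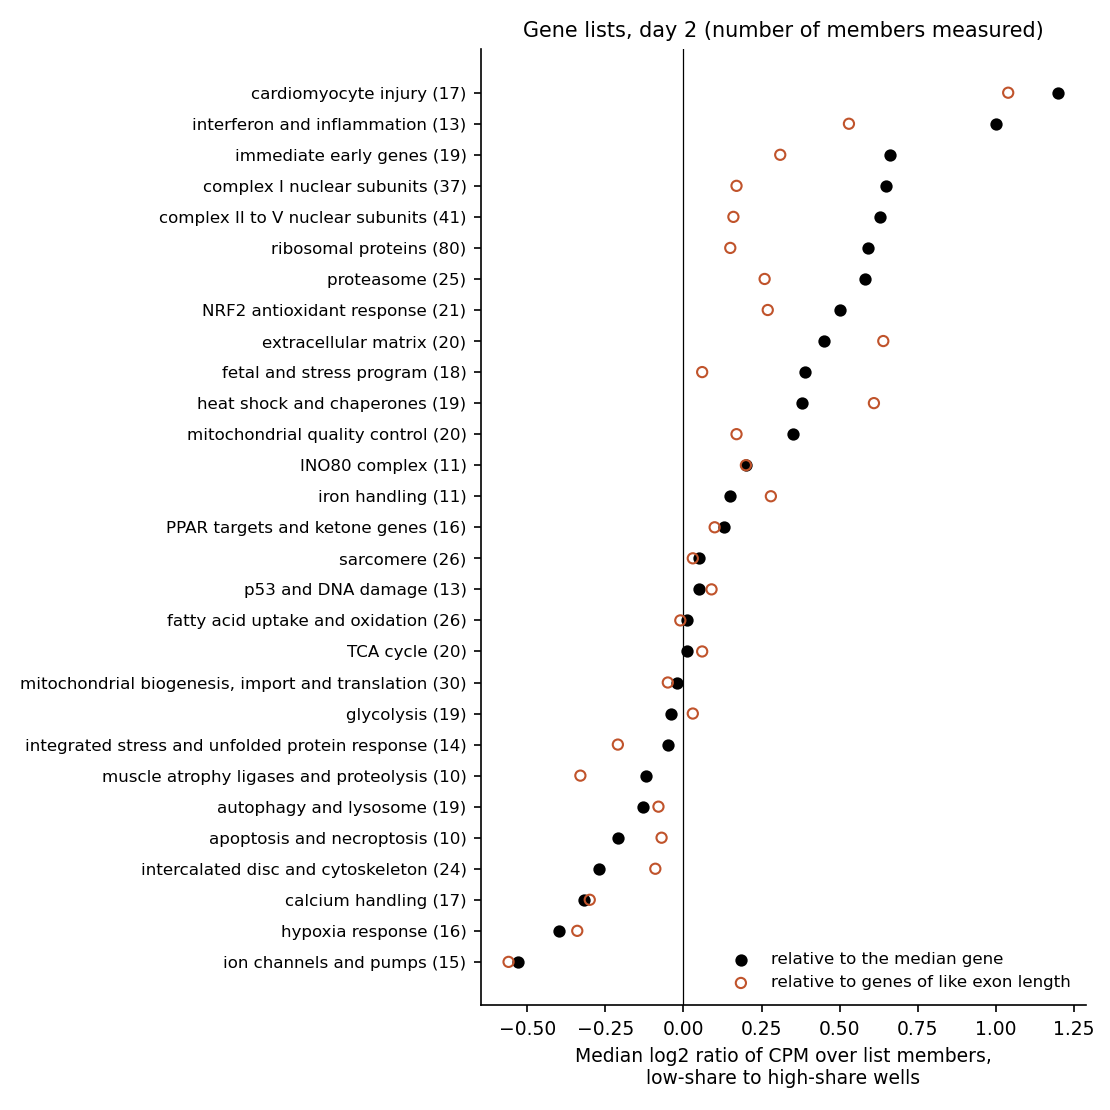
Median log2 ratio of low-share to high-share wells over the measured members of each gene list with at least 5 of them (x axis; lists on the y axis with the number of members measured), set against the median gene (filled) and against genes of like exon length (open). Of the lists drawn, cardiomyocyte injury lies highest at 1.20 and 1.04 and ion channels and pumps lowest at -0.53 and -0.56. Complex I lies at 0.65 and 0.17, where the genes of like length include members of the list itself.

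Markers of other cell types moved with the groups to different degrees, and their part in the results above was not tested. Of 19 endothelial markers 15 lay above the median gene, while 10 were higher in low-share and 9 in high-share wells. Their summed well level had a median of 1981 CPM (quartiles 678 to 4596) in low-share and 1278 CPM (379 to 3685) in high-share wells. These quartiles overlapped. Wells with 1000 CPM or more of 5 endothelial genes went the other way. Before the marker filter they were 2.74% of low-share wells (exact interval 1.32 to 4.98%) and 4.56% of high-share wells (3.03 to 6.57%), with overlapping intervals. Of 8 macrophage markers measured 6 lay above the median gene, with summed well medians of 66.4 (16.3 to 221) and 47.2 CPM (23.5 to 139) after the filter on 4 of the listed genes. The interferon and inflammation list had 12 of 13 genes above the median gene, 4 past 2-fold on the low-share side and 1 on the high-share side, against 3.49 and 17.3% of all genes, and 2 of the 4 had under 5 CPM in high-share wells (list median 1.00 relative to the median gene, 0.53 relative to like length). Among the 4, Ccl2, a monocyte chemokine, had 22.6 and 6.39 CPM, and Il1b had 20.5 and 3.36 CPM with 68.7% of its low-share reads in 1 well. B2m, the light chain of MHC class I, was widespread, with well medians of 149.6 and 53.9 CPM.

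Some blood cell transcripts were concentrated in 1 well, while erythroid ones were spread over more wells. Neutrophil markers had 3 of 4 measured genes past 2-fold on the low-share side, against 3.49% of all genes with a mean of 5 CPM. However, 1 well held 99.7% of the low-share reads of Retnlg (105 and 9.63 CPM) and 98.8% of those of S100a8 (87.2 and 22.6 CPM), and Ly6g had 0 reads in low-share wells. The plasma cell gene Igkc had 4.64 and 598 CPM, with 98.5% of the high-share reads in 1 well. Erythroid markers had 5 of 5 measured genes below the median gene, with summed well medians of 131 CPM (23.2 to 347) and 389.7 CPM (138 to 759.9). The 12 fibroblast markers, 4 of them used in the filter, had summed medians of 204 and 275 CPM.

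The genes past 2-fold on day 2 were also read in the wells and libraries that the rule did not use. Of the 948 high-share genes, 577 of 767 measured (75.2%) were on the same side in macrophage-marked wells, 612 of 792 (77.3%) in fibroblast-marked wells, 592 of 799 (74.1%) on day 1 and 681 of 796 (85.6%) on day 3. The corresponding shares of all genes on that side were 55.1, 57.1, 57.0 and 66.3%. Of the 144 low-share genes, 56 of 86 (65.1%), 81 of 106 (76.4%), 65 of 98 (66.3%) and 61 of 97 (62.9%) were on the same side, against 44.9, 42.9, 43.0 and 33.7% of all genes. The shares of all genes were not matched for transcript length. Median exon lengths were 6646 bases for the high-share, 2598 for the low-share and 4552 for all tested genes. Ratios fell with length in each of these wells and libraries, and the part of length in the same-side counts was not tested. Past 2-fold on the same side were 15 of the 98 low-share genes (15.3%) on day 1, where 7.01% of all genes were past 2-fold on that side, and 189 of the 799 high-share genes (23.7%), where 12.7% were. On day 3 they were 29 of 97 (29.9%) and 279 of 796 (35.1%), with 5.29 and 19.4% of all genes.

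Among the named genes, 15 of 15 low-share and 11 of 14 high-share genes kept their side in fibroblast-marked wells, and 13 and 8 in macrophage-marked wells. Day 1 gave 12 and 8, and day 3 gave 13 and 10. Gadd45g had log2 ratios of 0.65, 1.02, 0.15 and 1.15 in macrophage-marked wells, fibroblast-marked wells, day 1 and day 3, and Ftl1 had 0.93, 1.18, 0.46 and 1.15. Timp1 had 2.39, 3.12, 2.22 and 1.99, so it was past 2-fold in each of these. Lists kept the pattern in part. The injury list was 1.87, 1.15, 0.37 and 0.57 above the median gene in macrophage-marked wells, fibroblast-marked wells, day 1 and day 3, and complex I 0.37, 0.53, 0.32 and 0.79. Ion channels and pumps were at -1.13, -0.93, -0.15 and -0.78, while calcium handling was at -0.76, -0.50, -0.04 and 0.14.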

How the data were processed

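The deposited tables give counts of reads for each gene in each well, whole numbers that the authors did not normalize. They were made with cutadapt, STAR and featureCounts on the build mm10, per the submitters' processing notes. Tool versions, the annotation, the strand setting and the treatment of duplicates were not given in the sources used here. Gene names, coordinates and exon lengths came from GENCODE M21, which matched 55141 of 55401 mouse identifiers.

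Counts were summed over the wells of a group and divided by the nuclear-encoded total to give CPM (per 1000000), with exact Poisson 95% intervals; log2 ratios have intervals from the binomial split, and shares of wells are exact Clopper-Pearson. Genes were counted as past 2-fold at a mean of 10 CPM or more, and list members were measured at 5 CPM or more.

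Named genes are the 12 highest and 12 lowest log2 ratios with 5 CPM added, at a mean of 20 CPM or more, a read in 10% of wells of the higher group, at most 25% of its reads from 1 well and the same direction in well means, with well medians in that direction or tied (often both 0). Symbols of the Gm and Rik kind and those of mitochondrial and ribosomal protein genes could not be named, and a few genes that the rule or the lists include are not reported here. The rule was run again, with 10 each way, without the 25% of wells highest in endothelial markers. Members, the 31 gene lists and the 14 marker lists were chosen with earlier results of these data known. "Relative to like length" subtracts the median ratio of genes in the same 1 of 20 exon-length bins. List members in a bin count towards its median, so a list of genes of similar length is in part set against itself.

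The steps were tested on simulated counts and run in Python 3.11.15 with numpy 2.4.6, scipy 1.17.1, pandas 2.3.3 and matplotlib 3.10.9. Alternatives changed the scaling, depth, boundaries, marker filters and expression minimum, and 4 were added after the data were seen.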

Additional observations from a re-analysis of the deposited data

Results flagged for a closer look

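Spike-in sequences, which enter no comparison above, had reads in the day 2 library. ERCC controls, synthetic RNAs added in known amounts, had 247 reads over all day 2 wells, and SIRV controls, synthetic isoform mixtures, had 220. These values were not read against a control sample.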

How the results depend on the processing

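The counts of genes past 2-fold were 144 (low-share side) and 948 (high-share side). With mitochondrial reads in the total they were 610 and 136, with a median-of-ratios size factor 338 and 495, at a minimum of 50 CPM 19 and 188, at 1 CPM 972 and 2699, and relative to genes of like exon length 283 and 372. The low-share count was 290 for wells below 25% against 45% or above, 266 among wells with Ino80 at 2000 to 6000 CPM (179 low-share and 165 high-share wells), and 85 when the highest-count well of each gene was left out. Macrophage-marked wells gave 1129 and 1847, and fibroblast-marked wells 876 and 1709, from far fewer wells. The other counts stayed within 1.5 times.

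In macrophage-marked wells Wdfy1 (-0.99), Cavin3 (-2.59), Hba-a2 (1.86), Hba-a1 (2.37), Hbb-bs (1.75), Epha4 (1.11), Sap30l (0.13) and Med1 (0.69) had the opposite sign, and in fibroblast-marked wells Hba-a2 (1.90), Hba-a1 (1.67) and Hbb-bs (1.67); the cause was not tested. The 29 named genes kept their direction under all other settings, with 23 to 29 of them past 2-fold; 23 was reached among wells with Ino80 at 2000 to 6000 CPM and with no wells dropped by marker sums. Genes with reads in few wells rest on those wells. No paired analysis was possible because each day is 1 library.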
